A study of Homo sapiens with 12 samples.

Results

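The levels of 10 integrin subunit genes were followed in hypoxic U87 cells, namely ITGA2, ITGA3, ITGA4, ITGA5, ITGA6, ITGAV, ITGB1, ITGB3, ITGB5 and ITGB8. They were taken by symbol and make up 10 of the 20263 genes in the table of messenger RNA levels. Every library held a value for each of them, and 7 of the 10 passed the filter on low values, each with at least 1 TPM (a level corrected for gene length and scaled to the library's total) in 12 of 12 libraries. The remaining 3, ITGA2, ITGA4 and ITGB8, were too low to be tested and are described by their levels.

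The cells were U-87 MG, an established human glioblastoma line called U87 here. All 12 libraries came from cells kept in 1% O2, for 72 h according to the record of the experiment (the methods name 12 h for mRNA measurements in general), and no normoxic library was among them. The groups were empty vector, HIF1α-ko (HIF1A knocked out), HIF2α-ko (EPAS1, the gene of HIF2α, knocked out) and HIF1α/2α-ko (both knocked out), with 3 libraries each. The sources used here give neither the edited position nor whether a knockout line was 1 clone, and the labels do not say whether the 3 libraries of a group were separate cultures, so the p-values measure the spread between these libraries.

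Integrins are receptors that hold cells to the extracellular matrix, and each is a pair of 1 alpha and 1 beta subunit that leave the endoplasmic reticulum together. ITGB1 is the common partner of many alpha subunits, among them the laminin receptors ITGA3 and ITGA6, the collagen receptor ITGA2 and the fibronectin receptor ITGA5, whereas ITGAV also pairs with ITGB3, ITGB5 and ITGB8 and binds vitronectin, fibronectin and latent TGFβ. HIF1α and HIF2α are the oxygen-regulated subunits of transcription factors that bind short DNA elements with the core letters CGTG.

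Since the groups differ in these factors, stretches upstream of the RefSeq starts are shown for ITGB1, ITGB5, ITGA6 and ITGA5. RefSeq windows (GRCh38.p14) were found for 8 of the 10 members, not for ITGA3 and ITGB3, and the 250 bases before the start were searched for ACGTG and GCGTG and, for the other strand, CACGT and CACGC. The forward and reverse forms overlap where they share CACGTG. For the members only the first listed window of each gene was used, whereas the share over all windows was not limited to 1 per gene. At least 1 of these letter runs was present in 5 of the 8 member windows and in 43.2% of all 35116 windows. ACGTG or CACGT was present in 18.5% of all windows and, among the members, in that of ITGA6. Capitals mark the matches.
ITGB1, chr10:32958233-32958480, minus strand: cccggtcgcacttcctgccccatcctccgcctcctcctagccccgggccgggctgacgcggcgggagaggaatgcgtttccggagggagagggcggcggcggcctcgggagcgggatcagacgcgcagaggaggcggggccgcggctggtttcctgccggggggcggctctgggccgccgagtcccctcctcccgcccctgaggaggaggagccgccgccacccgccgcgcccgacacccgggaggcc
ITGB5, chr3:124901419-124901668, minus strand: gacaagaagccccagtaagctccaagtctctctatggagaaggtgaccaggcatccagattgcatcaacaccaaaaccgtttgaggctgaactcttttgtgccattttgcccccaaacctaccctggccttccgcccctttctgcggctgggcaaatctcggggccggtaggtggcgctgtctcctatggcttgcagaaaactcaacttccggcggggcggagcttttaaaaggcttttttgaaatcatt
ITGA6, chr2:172427086-172427335, plus strand: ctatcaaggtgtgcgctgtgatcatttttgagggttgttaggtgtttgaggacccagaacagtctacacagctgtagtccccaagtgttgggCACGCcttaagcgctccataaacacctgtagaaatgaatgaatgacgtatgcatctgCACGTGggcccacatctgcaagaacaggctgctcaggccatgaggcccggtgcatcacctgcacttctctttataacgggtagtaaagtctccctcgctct
ITGA5, chr12:54419379-54419408, minus strand: gcgcccccccccCACGCcccttaggggtgg

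The windows of ITGB1 and ITGB5 held none of the letters. That of ITGB1 lay inside the GENCODE 29 span of the gene, chr10:32900319-33005792, and the stretch before its outermost start was not searched. The ITGA6 window held CACGC 158 bases and the joined CACGTG 101 bases before the start, counted to the first base of each. In ITGA5 the match began 130 bases before the RefSeq start, inside the first exon of the longer GENCODE 29 model, so 30 bases around it are shown. These are matches of letters in a window and not measured binding.

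The targeted genes served as a check of the labels. HIF1A, at 110.0 to 151 TPM in vector, was at 38.6 to 57.3 TPM where it alone was targeted (log2 fold change -1.34, SE 0.20, adjusted p = 0.000851) and at 67.8 to 89.2 TPM where both genes were (-0.71, SE 0.20, adjusted p = 0.0104). In HIF2α-ko, where it was not targeted, HIF1A was at 76.1 to 108 TPM, below each vector library, although the change did not pass (-0.52, SE 0.20, adjusted p = 0.112). That range overlapped the dual knockout, which differed from HIF2α-ko in HIF1A by -0.19 (95% interval -0.62 to 0.23, adjusted p = 0.453), so the HIF1A level did not set these 2 groups apart and their comparison rests on the labels. EPAS1, at 286 to 346 TPM in vector, changed by -1.59 where it alone was targeted (adjusted p = 0.000375) and by -1.45 in the dual knockout (adjusted p = 1.3e-05), and neither range overlapped vector. Its change in HIF1α-ko, at 251 to 288 TPM, was -0.28 (adjusted p = 0.168). Both mRNAs were reduced and not absent. Of the line's markers, VIM (5635 to 14690 TPM) and CD44 (399 to 1412 TPM) were high and CDKN2A, which U-87 MG is known to lack, was listed at 0 in 12 of 12 libraries, whereas NES was at 2.64 to 6.17 TPM, OLIG2 at 0.884 to 19.2 TPM and the glial markers GFAP, SOX2 and S100B stayed below 1 TPM. Markers of other cell types were low (PTPRC, CD3E, PECAM1, EPCAM, RBFOX3, MOG and CDH5 between 0 and 3.63 TPM) except CD68, a lysosomal protein of macrophages, at 587 to 1633 TPM. Vector replicate 1 stood apart: across all tested genes its correlation with the other vector libraries was 0.968 and 0.966, against 0.989 between those. Results of the members against vector are therefore also given without it. Replicate 1 was also the least alike in each knockout group, with r of 0.975 to 0.985 against 0.991 to 0.992.

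The 10 members spanned more than 4 orders of magnitude. ITGA3 (ENSG00000005884, chr17:50055968-50090481, plus strand) had the highest median over the 12 libraries, 1917 TPM, followed by ITGA5 (ENSG00000161638, chr12:54395261-54419460, minus strand) at 1037 TPM. ITGB1 (ENSG00000150093, chr10:32900319-33005792, minus strand) was at 206 TPM, ITGB5 (ENSG00000082781, chr3:124761948-124901418, minus strand) at 164 TPM and ITGB3 (ENSG00000259207, chr17:47253846-47311816, plus strand) at 54.5 TPM. ITGAV (ENSG00000138448, chr2:186590065-186680901, plus strand) was at 10.9 TPM and ITGA6 (ENSG00000091409, chr2:172427354-172506282, plus strand) at 1.97 TPM. All positions are those of GENCODE 29 on GRCh38. An antisense gene overlaps ITGA2, ITGA5, ITGA6, ITGAV, ITGB3, ITGB5 and ITGB8, the noncoding ITGB1-DT overlaps ITGB1 on the opposite strand, and whether strand was used in counting is not given in the sources used here. On its own strand ITGB3 is overlapped by AC068234.1, itself listed at 0 to 1.95 TPM.

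**Figure D1:**
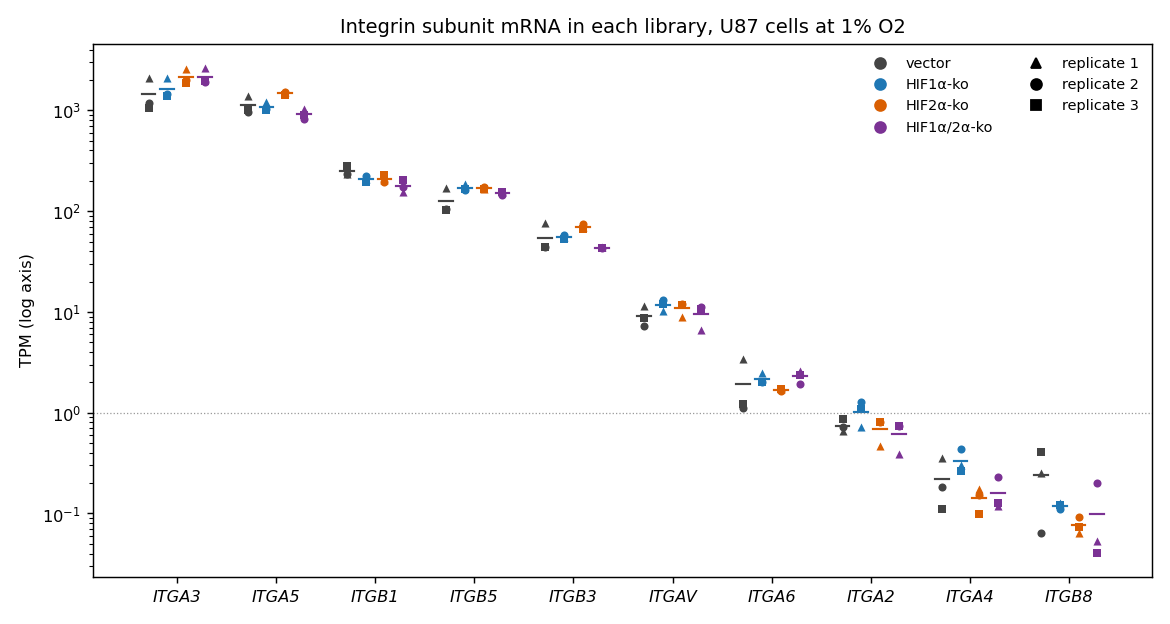
TPM (log axis) of the 10 members in each of the 12 libraries, with a point per library (colour for group, shape for replicate) and a short line at the group mean; the dotted line is 1 TPM. ITGA3 and ITGA5 lie at 829 to 2622 TPM, while ITGA2, ITGA4 and ITGB8 lie at or below 1.27 TPM, and vector replicate 1 (dark triangles) sits above the other vector libraries for ITGA3, ITGA5, ITGB5, ITGB3, ITGAV and ITGA6.

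ITGA3 exceeded ITGA5 within each library, although the ranges of both overlapped across libraries. ITGB1 and ITGB5 did not overlap within vector, HIF1α-ko or HIF2α-ko, but in HIF1α/2α-ko they did, at 154 to 204 TPM and 145 to 155 TPM. ITGA3 and ITGA5 together made up 82.5% to 91.0% of the summed TPM of the 10 members. The 6 alpha members summed to between 7.40 and 23.9 times the level of ITGB1 in the same library, so that alpha subunit mRNA exceeded that of the common beta partner throughout.

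Among the laminin receptor subunits, ITGA3 was at 2099, 1197 and 1066 TPM in vector replicates 1 to 3, a mean of 1454 ± 562 TPM (SD, n = 3). It was at 2074, 1470.3 and 1391 TPM in HIF1α-ko, at 2577, 1982 and 1884 TPM in HIF2α-ko and at 2622, 1893 and 1940.5 TPM in HIF1α/2α-ko. Both groups without HIF2α lay above vector replicates 2 and 3 in each library, and vector replicate 1 lay among them. The log2 fold change against vector was 0.61 (SE 0.24) in HIF2α-ko and 0.61 (SE 0.24) in HIF1α/2α-ko, and neither passed the test (limma on log2(TPM + 1), Benjamini-Hochberg adjusted p = 0.128 and 0.0558). Both passed without vector replicate 1, at 0.91 (adjusted p = 0.00945) and 0.91 (adjusted p = 0.00348). HIF1α-ko differed from vector by 0.22 (95% interval -0.31 to 0.75, adjusted p = 0.525). Replicate 1 held the highest ITGA3 level of each group, and leaving it out of vector alone keeps it in the knockouts. Without replicate 1 in any group, HIF2α-ko was at 0.77 (adjusted p = 0.000441) and HIF1α/2α-ko at 0.76 (adjusted p = 9.96e-05). HIF1α-ko then passed too, at 0.34 (adjusted p = 0.00682). This removal was added after the position of replicate 1 was seen.

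ITGA6, which pairs with ITGB1 or ITGB4, was a low gene, at 3.39, 1.11 and 1.22 TPM in vector and at 2.51, 2.03 and 2.01 TPM in HIF1α-ko. It was at 1.72, 1.63 and 1.72 TPM in HIF2α-ko and at 2.61, 1.93 and 2.35 TPM in HIF1α/2α-ko. Vector replicate 1 held the highest ITGA6 level of all 12 libraries, and the other vector libraries the lowest. No change against vector passed with all libraries (-0.03 to 0.26 on the log2 scale), and without vector replicate 1 the value reached 0.55 for HIF1α-ko (adjusted p = 0.0136) and 0.60 for the dual knockout (adjusted p = 0.00589). Near 1 TPM the added pseudocount of 1 makes fold changes smaller than those of the TPM itself.

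The fibronectin receptor subunit ITGA5 was at 1403, 972 and 1017 TPM in vector and at 1199.7, 1033 and 1000.4 TPM in HIF1α-ko. It was at 1509, 1539 and 1415 TPM in HIF2α-ko, a mean of 1488 ± 65.2 TPM, and at 1042, 829 and 908 TPM in HIF1α/2α-ko, a mean of 926 ± 108 TPM (SD, n = 3). The HIF2α-ko libraries were the 3 highest of the 12, and those of HIF1α/2α-ko did not overlap them. ITGA5 was thus lower in HIF1α/2α-ko than in HIF2α-ko by a log2 fold change of -0.69 (SE 0.14, 95% interval -1.003 to -0.37, adjusted p = 0.00209), or 1.61-fold. Against vector it did not pass in HIF2α-ko (0.41, adjusted p = 0.0874), although the libraries of the groups did not overlap, nor in the dual knockout (-0.27, adjusted p = 0.139). The HIF2α-ko value was 0.58 without vector replicate 1 (adjusted p = 0.00527).

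ITGAV, the alpha subunit of the vitronectin receptors, was at 11.4, 7.18 and 8.61 TPM in vector, at 10.2, 13.1 and 12.03 TPM in HIF1α-ko, at 8.86, 11.9 and 11.7 TPM in HIF2α-ko and at 6.56, 11.3 and 10.6 TPM in HIF1α/2α-ko. The ranges of the 4 groups overlapped. Replicate 1 was the highest library of vector and the lowest of each knockout group. Without rescaling or a replicate block, no contrast of ITGAV passed with all libraries, and the 95% intervals against vector reached from -0.43 to 0.84 over the 3 knockout groups. Nor did a change against vector pass without vector replicate 1 alone. Without replicate 1 in any group, limma gave 0.61 in HIF1α-ko (adjusted p = 0.00342) and 0.53 in HIF2α-ko (adjusted p = 0.0109). HIF1α/2α-ko was then at 0.43 (adjusted p = 0.0129) and the interaction term at -0.71 (adjusted p = 0.011). This removal was added after the position of replicate 1 was seen.

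ITGB1, the shared beta subunit, was at 236, 236 and 283 TPM in vector, a mean of 252 ± 27.2 TPM (SD, n = 3). It was at 207, 223 and 196 TPM in HIF1α-ko, at 204, 194 and 230.0 TPM in HIF2α-ko, and at 154, 173 and 204 TPM in HIF1α/2α-ko. Each of the 9 knockout libraries was below each vector library. ITGB1 was lower in HIF1α/2α-ko than in vector by -0.51 on the log2 scale (SE 0.13, 95% interval -0.79 to -0.23, adjusted p = 0.00694), or 1.42-fold, and this passed under each of the 21 alternative settings, at -0.76 to -0.41. Both single knockouts gave -0.26 (SE 0.13; adjusted p = 0.151 for HIF1α and 0.221 for HIF2α). With libraries rescaled by median ratios, the HIF1α-ko value was -0.46 (adjusted p = 0.022). CD68 was ordered alike, at 1284 to 1633 TPM in vector, 816 to 1061 TPM in HIF1α-ko, 1009.9 to 1220.3 TPM in HIF2α-ko and 587 to 818 TPM in HIF1α/2α-ko, and OLIG2 was at 7.61 to 19.2 TPM in HIF1α/2α-ko and 0.884 to 2.70 TPM in vector; their part in the result was not tested, and the leukocyte markers PTPRC and CD3E were at 0 to 0.111 TPM. As these are whole cultures, less mRNA per cell and fewer cells that express a gene cannot be told apart, here or for any other member.

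Of the beta subunits that pair with ITGAV, ITGB3 was at 75.9, 44.2 and 44.2 TPM in vector and at 56.0, 57.5 and 52.9 TPM in HIF1α-ko. It was at 69.0, 75.3 and 66.4 TPM in HIF2α-ko, a mean of 70.2 ± 4.58 TPM, and at 43.7, 43.1 and 43.6 TPM in HIF1α/2α-ko, a mean of 43.5 ± 0.314 TPM (SD, n = 3). The HIF1α/2α-ko libraries were the 3 lowest of the 12 and did not overlap any other group. ITGB3 was lower in HIF1α/2α-ko than in HIF2α-ko by -0.68 (SE 0.18, 95% interval -1.07 to -0.29, adjusted p = 0.00832), or 1.599-fold. Against vector neither change passed, at 0.40 for HIF2α-ko (adjusted p = 0.177) and -0.28 for the dual knockout (adjusted p = 0.22). Vector replicate 1 decided the first value, which without it was 0.65 (adjusted p = 0.00148), while the second was then -0.02 (adjusted p = 0.863). Median ratio scaling took the second past the threshold, at -0.52 (adjusted p = 0.0321).

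ITGB5 was at 172, 106 and 103 TPM in vector, at 185, 163 and 167 TPM in HIF1α-ko, at 165, 173 and 168 TPM in HIF2α-ko and at 155, 145 and 155 TPM in HIF1α/2α-ko. Every knockout library lay above vector replicates 2 and 3, and vector replicate 1 lay within the knockout range. None of the 3 knockouts passed against vector, at 0.47 (SE 0.17, adjusted p = 0.0545), 0.45 (SE 0.17, adjusted p = 0.107) and 0.30 (SE 0.17, adjusted p = 0.163). Each passed without vector replicate 1, at 0.71, 0.68 and 0.53 (adjusted p = 0.000304, 0.000793 and 0.000823).

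The low members were at the edge of what the table lists. ITGA2, the collagen receptor subunit (ENSG00000164171, chr5:52989326-53094779, plus strand), was at 0.388 to 1.27 TPM. ITGA4, whose integrins bind VCAM1 and fibronectin (ENSG00000115232, chr2:181457202-181536187, plus strand), was at 0.0990 to 0.436 TPM, and ITGB8, a receptor subunit for latent TGFβ (ENSG00000105855, chr7:20330702-20415754, plus strand), at 0.0408 to 0.407 TPM. The ranges of ITGA4 and ITGB8 overlapped each other. None was listed at 0 in any library, and since TPM keeps no sequencing depth, no detection limit can be attached to these levels.

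Counted over the 7 tested members, 0 passed an adjusted p of 0.05 in HIF1α-ko against vector, where 26.1% of all 11731 tested genes passed, and at an unadjusted p under 0.05 there was 1, ITGB5. In HIF2α-ko 0 of 7 passed, where 11.0% of all genes did, with 4 at an unadjusted p under 0.05 (ITGA3, ITGA5, ITGB3 and ITGB5). In HIF1α/2α-ko 1 of 7 passed, ITGB1, which was lower, where 46.7% of all genes passed in either direction and 14.8% of all genes passed as lower. The median log2 fold change of the 7 was 0.21, 0.40 and 0.05 in the 3 comparisons, beside 0.18, -0.04 and 0.21 over all tested genes. Relative to these all-gene medians, ITGB1 stood at -0.72 in HIF1α/2α-ko and ITGB5 at 0.29 in HIF1α-ko. With libraries rescaled by median ratios, 3 of 7 members were lower in HIF1α/2α-ko (ITGB1, ITGA5 at -0.52 and ITGB3 at -0.52). Of all genes 46.5% then passed in either direction, and 2698 of 11731 were lower.

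Without vector replicate 1, 3 of 7 passed in HIF1α-ko (ITGA6, ITGB3 and ITGB5, all higher) beside 35.8% of all genes. In HIF2α-ko 4 of 7 then passed (ITGA3, ITGA5, ITGB3 and ITGB5, all higher) beside 21.3%. In HIF1α/2α-ko 4 of 7 passed (ITGA3, ITGA6 and ITGB5 higher, ITGB1 lower) beside 48.5%. The comparisons with vector share its libraries, so their values are not independent of each other. Groups did not overlap for 1 of 7 members in HIF1α-ko against vector (39.6% of all genes), ITGB1, for 2 in HIF2α-ko (30.5%), ITGA5 and ITGB1, and for 2 in the dual knockout (50.5%), ITGB1 and ITGB3.

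**Figure D2:**
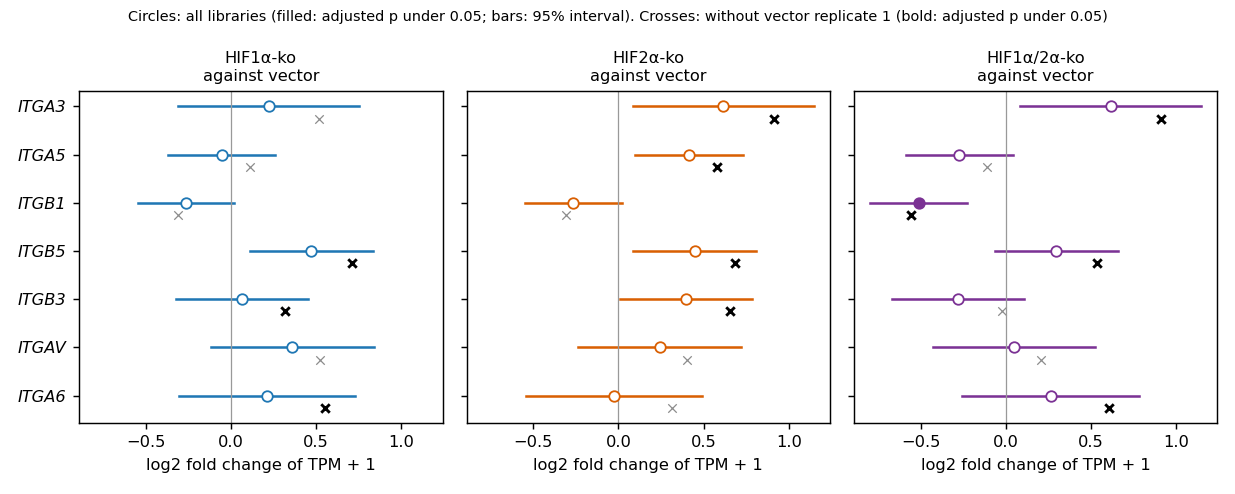
Log2 fold change of TPM + 1 against vector for the 7 tested members in each knockout group, as circles with 95% interval bars for all libraries and crosses without vector replicate 1 (filled or bold where the adjusted p is under 0.05). With all libraries ITGB1 in HIF1α/2α-ko, at -0.51, is the filled circle, while without vector replicate 1 the crosses of ITGA3, ITGB5, ITGB3 and ITGA6 move to the right in each panel.

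To see what the loss of the second factor added, HIF1α/2α-ko was compared with each single knockout. Against HIF2α-ko, 2 of 7 members passed, ITGA5 and ITGB3, both lower, where 46.4% of all genes passed and 12.9% were lower. Both passed under each of the 22 alternatives, at -0.99 to -0.61 for ITGA5 and -0.97 to -0.63 for ITGB3. All tested genes had a median of 0.23 in this contrast, and with median ratio scaling ITGAV (-0.47) and ITGB1 (-0.55) were lower as well, 4 of 7 members. Of all genes 44.4% then passed in either direction, and 2558 of 11731 were lower. Against HIF1α-ko, 0 of 7 passed, beside 28.3% of all genes, and 0 had an unadjusted p under 0.05. Groups did not overlap for 2 of 7 members against HIF1α-ko (44.3% of all genes), ITGB3 and ITGB5, and for 4 of 7 against HIF2α-ko (56.7%), ITGA5, ITGA6, ITGB3 and ITGB5.

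Same-numbered libraries of the 3 knockout groups deviated together from their group means. The r was 0.463 to 0.508 for replicate 1 and 0.196 to 0.250 for replicates 2 and 3. Such deviations cancel within a group, so a shift shared by replicate 1 alone would also correlate the others. Differently numbered libraries were not compared, so the pairing of replicates 2 and 3 is not shown. On the assumption of pairs, these groups were also fitted with the replicate number as a block. In that fit, 4 of 7 members passed in HIF1α/2α-ko against HIF1α-ko, beside 48.5% of all genes. ITGA3 was then higher by 0.39 (SE 0.06, adjusted p = 0.001), with HIF1α/2α-ko above HIF1α-ko in 3 of 3 same-numbered pairs. ITGB3 was lower by -0.34 (SE 0.07, adjusted p = 0.00685), ITGA5 by -0.22 (SE 0.08, adjusted p = 0.0446) and ITGAV by -0.31 (SE 0.11, adjusted p = 0.0499), each in 3 of 3 pairs. The blocked values against HIF2α-ko kept ITGA5 (adjusted p = 0.000156) and ITGB3 (adjusted p = 0.00015).

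The interaction term asks whether the change in HIF1α/2α-ko differed from the sum of both single knockouts. It was negative and past the threshold for ITGA5 alone among the 7, at -0.64 (SE 0.20, 95% interval -1.08 to -0.19, adjusted p = 0.0455), beside 20.6% of all genes and 7.35% lower. For ITGB3 it was -0.74 (SE 0.25, adjusted p = 0.0558) and for ITGB5 -0.62 (SE 0.24, adjusted p = 0.0807). The ITGA5 value passed in 7 of 20 alternatives, with adjusted p from 0.00116 to 0.106. Without vector replicate 1, ITGA5 (-0.80), ITGB3 (-0.998) and ITGB5 (-0.86) passed, beside 30.4% of all genes.

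Ratios within a library do not move with its scaling, and 5 of them were compared with an exact two-sided permutation test of each factor's loss within the status of the other factor (10 tests, Benjamini-Hochberg adjusted). The ITGB3 to ITGB5 ratio was 0.417 to 0.442 in vector and 0.396 to 0.436 in HIF2α-ko, but 0.303 to 0.353 in HIF1α-ko and 0.280 to 0.298 in HIF1α/2α-ko. All 6 libraries without HIF1α lay below all 6 with it. The log2 change with HIF1α loss was -0.47, and the exact permutation p was 0.005, the smallest that 400 relabelings can give, with an adjusted p of 0.05, which is at the threshold and not under it. With HIF2α loss the ITGB3 to ITGB5 ratio changed by -0.11 (exact permutation p = 0.03, adjusted p = 0.075). Vector replicate 1 was at 0.442 in this ratio, and the lowest vector library at 0.417.

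For ITGA3 over ITGA6, HIF2α loss gave a log2 change of 0.46 (exact permutation p = 0.01, adjusted p = 0.05), from 619 to 1082 in vector to 1093 to 1499.8 in HIF2α-ko, and from 692 to 828 in HIF1α-ko to 824 to 1005 in HIF1α/2α-ko. The ratio of ITGB1 to the summed alpha members changed by -0.61 with HIF2α loss (exact permutation p = 0.03, adjusted p = 0.075). ITGA5 over ITGAV changed by -0.46 with HIF1α loss (exact permutation p = 0.045, adjusted p = 0.09). ITGAV over the sum of ITGB3, ITGB5 and ITGB8 changed by 0.05 and -0.15 with the loss of HIF1α and HIF2α (exact permutation adjusted p = 0.755 and 0.519). None of the 10 tests fell under an adjusted p of 0.05. A single test at the smallest possible p could only reach that value and not fall under it, so this outcome does not show that the ratios were unchanged.

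A further ratio was chosen after its values were seen and is given as a description. ITGA3 over ITGA5 was 1.05 to 1.496 in vector, 1.39 to 1.73 in HIF1α-ko and 1.29 to 1.71 in HIF2α-ko, and 2.14 to 2.52 in HIF1α/2α-ko. The HIF1α/2α-ko libraries did not overlap any other group, with group means of 2152 TPM for ITGA3 and 926 TPM for ITGA5, beside 2148 TPM and 1488 TPM in HIF2α-ko.

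**Figure D3:**
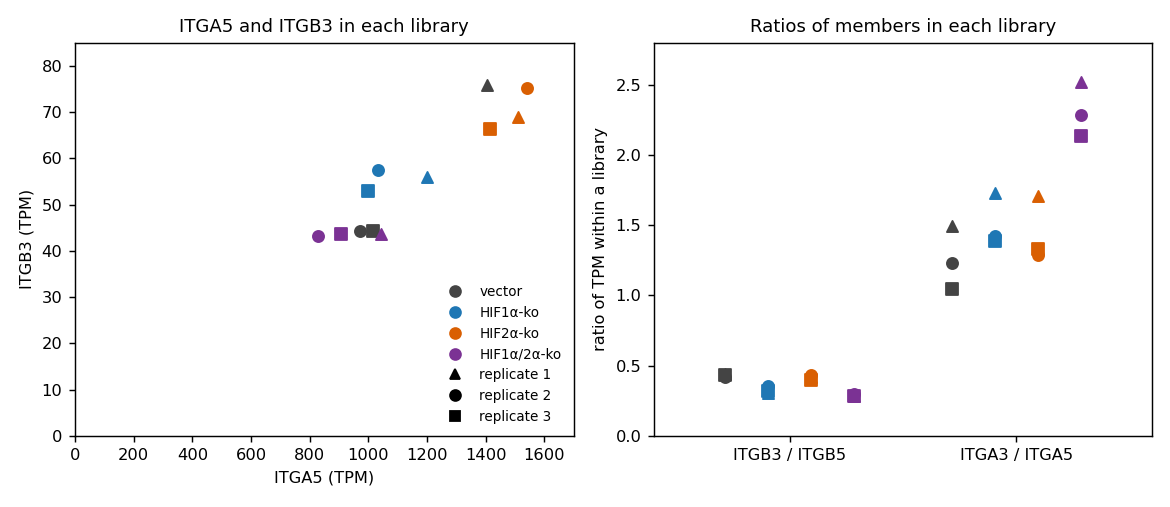
Left, TPM of ITGB3 against TPM of ITGA5 with a point per library (colour for group, shape for replicate); right, the within-library ratios of ITGB3 to ITGB5 and of ITGA3 to ITGA5 by group, in the same colours. HIF2α-ko libraries lie at the upper right and HIF1α/2α-ko libraries along the lower edge at 43.1 to 43.7 TPM of ITGB3, while the ITGA3 to ITGA5 ratio is above 2.1 in HIF1α/2α-ko and below 1.8 elsewhere.

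ITGA5 and ITGB3 followed each other over the libraries, with a Pearson r of 0.919 on log2(TPM + 1) over 12 libraries, which share 4 groups and are not independent points. Among the other pairs, ITGA3 with ITGB5 had r = 0.710 and ITGA3 with ITGB1 r = -0.67. The gene with the pattern most like that of each member, by r over the 12 libraries, was FADS2 for ITGA3 (0.976), PADI1 for ITGA5 (0.973), POLE for ITGA6 (0.936) and MARCKS for ITGAV (0.959). For the beta members it was GOLPH3L for ITGB1 (0.927), LAMA4, a laminin alpha chain, for ITGB3 (0.953) and EBP for ITGB5 (0.980). These are the highest of 11731 values each and carry no test.

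The other 16 integrin subunits gave 7 tested genes. Of these 7, HIF1α-ko had 3 that passed, all higher, HIF2α-ko had 1, higher, and the dual knockout had 1 higher and 1 lower, with list medians of 0.48, 0.33 and 0.30. Leaving out vector replicate 1 gave 5, 3 and 5 calls. ITGB4, the partner of ITGA6 in hemidesmosomes, was at 6.003 to 9.79 TPM in vector and 2.42 to 4.62 TPM in HIF1α/2α-ko, lower by -1.02 (SE 0.22, adjusted p = 0.00223). ITGAE, the alpha subunit of an E-cadherin receptor of lymphocytes, rose there from 1.28 to 1.80 TPM to 2.33 to 2.66 TPM (0.50, SE 0.16, adjusted p = 0.0199), and passed in 14 of 20 alternatives.

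Outside the rule for named genes, and chosen after their values were seen, were a pair of abundant alpha subunits. ITGAX, an alpha subunit of leukocyte integrins, was at 69.1 to 224 TPM, while its partner ITGB2 was at 0 to 0.47 TPM. ITGAX was higher in HIF1α-ko than in vector (1.11, SE 0.25, adjusted p = 0.00781), where replicates 1 to 3 were at 148, 71.1 and 69.1 TPM. HIF2α-ko, at 121 to 151 TPM, and HIF1α/2α-ko, at 108 to 146 TPM, also lay above vector replicates 2 and 3. ITGA7, a laminin receptor subunit that pairs with ITGB1, was at 143 to 298 TPM, above ITGAV and ITGA6, and was higher in HIF2α-ko than in vector (0.85, SE 0.13, adjusted p = 0.00315).

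The list of integrin activators and adhesion adaptors holds proteins that act at integrin tails or in the adhesions that link integrins to actin and signalling. Of 25 genes 24 were tested, and 1 rose and 1 fell in HIF1α-ko, 1 rose and 4 fell in HIF2α-ko, and with both factors lost 6 rose and 7 fell, where the list median was -0.16. Leaving out vector replicate 1 gave 8, 8 and 12 calls. PXN (paxillin, a scaffold of focal adhesions) was at 393 to 508 TPM in vector and 148 to 200.4 TPM in HIF1α/2α-ko, where it fell by 1.43 on the log2 scale (SE 0.17, adjusted p = 3.54e-05). It was also lower in HIF2α-ko (-0.90, adjusted p = 0.00678). LIMS1 (PINCH1, the partner of integrin-linked kinase) was at 249 to 306 TPM in vector and 110.3 to 133 TPM in HIF1α/2α-ko (-1.20, SE 0.14, adjusted p = 3.77e-05), and lay below vector there in every library.

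Of the 8 membrane partners, proteins that associate with integrins in the membrane, all were tested. HIF1α-ko had 3 that rose and 1 that fell, HIF2α-ko 2 that rose, and the dual knockout 1 that rose and 3 that fell, with list medians of 0.51, 0.02 and -0.11. CAV1 (caveolin 1) was at 619 to 707 TPM in vector, at 353 to 551 TPM in HIF2α-ko and at 202 to 282 TPM in HIF1α/2α-ko, where it was lower by -1.40 (SE 0.19, adjusted p = 0.000118). SLC3A2 (CD98 heavy chain, which binds beta tails) rose in HIF1α/2α-ko from 56.7 to 127 TPM to 190.2 to 202 TPM (1.14, SE 0.23, adjusted p = 0.0018).

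Among 22 integrin ligands 19 were tested, and VCAM1 and COL4A1 were listed at 0 in 12 of 12 libraries. HIF1α-ko had 3 that rose and 2 that fell, HIF2α-ko 1 that rose and 1 that fell, and the dual knockout 1 that rose and 7 that fell, with list medians of 0.10, 0.00 and -0.31. Without vector replicate 1, 8 rose and 2 fell in HIF1α-ko, 5 rose and 2 fell in HIF2α-ko, and 4 rose and 5 fell in HIF1α/2α-ko. COL1A1 (a type I collagen chain) was at 16.5 to 26.8 TPM in vector, 21.2 to 23.2 TPM in HIF1α-ko, 16.3 to 22.9 TPM in HIF2α-ko and 5.53 to 7.72 TPM in HIF1α/2α-ko, where it was lower by -1.51 (SE 0.19, adjusted p = 6.68e-05). THBS1 (thrombospondin 1) fell there by 0.74 (SE 0.13, adjusted p = 0.000496), at 0.539 to 0.558 TPM against 1.56 to 1.62 TPM. It was also below each vector library in HIF1α-ko, at 1.07 to 1.35 TPM, and in HIF2α-ko, at 0.888 to 1.15 TPM. FN1 (fibronectin, the ligand of ITGA5, named here outside the rule) was at 168 TPM in vector replicate 1 and 586 and 629 TPM in the other vector libraries, and at 106 to 145 TPM in HIF1α/2α-ko (-1.63, SE 0.39, adjusted p = 0.00464).

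**Figure D4:**
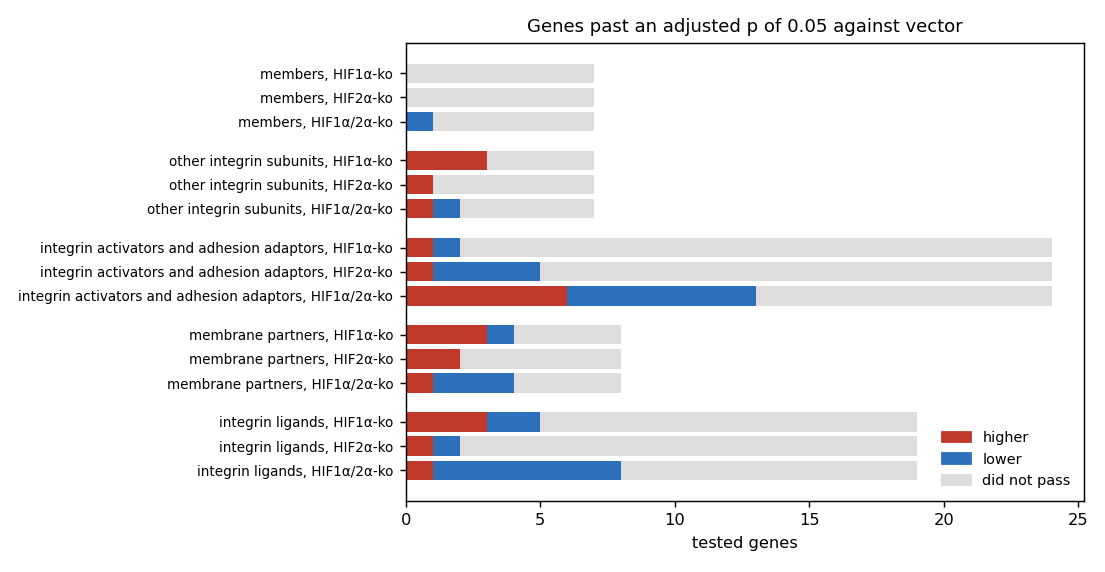
Number of tested genes of each list that were higher (red), lower (blue) or did not pass (grey) at an adjusted p of 0.05 against vector, by knockout group. In HIF1α/2α-ko 13 of 24 adaptors and 8 of 19 ligands passed, beside 1 of 7 members.

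These shares stand beside 46.7% of all tested genes in HIF1α/2α-ko, 26.1% in HIF1α-ko and 11.0% in HIF2α-ko. In HIF1α/2α-ko 13 of 24 adaptors, 4 of 8 membrane partners, 8 of 19 ligands and 2 of 7 other integrin subunits passed. No list was tested against all genes.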

How the data were processed

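Poly(A) RNA of U87 cells was sequenced in 12 libraries. The authors deposited TPM values per gene, 1 column per library and none pooled, and column sums of 999955 to 999982. The submitters' processing notes name FastQC 0.11.2, Trimmomatic 0.36, HISAT2 2.0, bedtools 2.26.0 and GRCh38, and the counting tool and the annotation are not given in the sources used here. TPM keeps no depth, so no counting interval or detection limit was attached. Columns of the knockouts carry a code of their group, and those of vector were assigned by its absence.

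Identifiers were matched to symbols for 20148 of 20263 genes. After a log2(TPM + 1) transform, limma 3.58.1 (R 4.3.3) with a mean-variance trend was run on 11731 genes, those reaching 1 TPM in 3 or more libraries, with the 4 groups together. Each p was adjusted by Benjamini-Hochberg within its contrast, at a threshold of 0.05. Fold changes are on the log2(TPM + 1) scale and understate changes of low genes. Ratios within a library were compared with exact permutation tests. The scripts were tested on simulated data.

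The numbers were taken to pair the knockout groups but not vector with the knockouts. Deviations of same-numbered libraries from their group means correlated with r of 0.196 to 0.508 between knockout groups. Between vector and the knockouts r was -0.03 to 0.16. A shift shared by replicate 1 alone would also give a positive r for the other numbers, so their pairing was not shown. Alternatives were a pseudocount of 0.1, no filter, a mean TPM of 5 as filter, scaling by median ratios or by quantiles, fits limited to the groups at hand, no trend, replicate blocks and leaving out each library, with the removal of replicate 1 in each group added after its position was seen.

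The members and lists were chosen with earlier results of these data known. Named were the 10 members, HIF1A and EPAS1, the most similar gene of each member, and from each other list the 2 tested genes of lowest p between the dual knockout and vector; genes outside this rule are marked as such. Promoter windows are RefSeq's, gene models GENCODE 29.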

Additional observations from a re-analysis of the deposited data

Results flagged for a closer look

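The interaction term (limma, Benjamini-Hochberg adjustment within the contrast) asks whether the effect of HIF1α loss differed between cells with and without HIF2α. It passed for 6 of the genes whose group comparisons are described above, and for 20.6% of all 11731 tested genes. The 6 are given as single genes and not as a result about the set. For ITGA5 the term was -0.64 on the log2 scale (adjusted p = 0.0455). HIF1α loss changed ITGA5 by -0.05 where HIF2α was present and by -0.69 where it was lost, and the libraries of the latter pair of groups did not overlap.

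Among the other integrin subunits the term was -0.90 for ITGA7 (adjusted p = 0.00621), which differed by 0.34 between HIF1α-ko and vector and by -0.56 between HIF1α/2α-ko and HIF2α-ko. It was -1.17 for ITGAX (adjusted p = 0.0347), which differed by 1.11 and -0.06 in the same comparisons. For LIMS1 it was -0.76 (adjusted p = 0.0197), with 0.02 and -0.74, and for COL1A1 -1.57 (adjusted p = 0.00299), with 0.10 and -1.47. The targeted HIF1A had a term of 1.15 (adjusted p = 0.0131), with -1.34 and -0.19. ITGA7 and ITGAX had been chosen after their values were seen. LIMS1 and COL1A1 had been chosen by their low p in HIF1α/2α-ko against vector, a difference that enters the term. Their terms are therefore given as descriptions. The terms of ITGA7, COL1A1 and HIF1A passed in 20 of 20 alternatives, that of LIMS1 in 19, that of ITGAX in 10 and that of ITGA5 in 7.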

How the results depend on the processing

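ITGB1 in HIF1α/2α-ko against vector, and ITGA5 and ITGB3 in HIF1α/2α-ko against HIF2α-ko, passed under each alternative run. The number of members that passed moved elsewhere. Median ratio scaling gave 1 for HIF1α-ko (24.1% of all genes) and 3 for the dual knockout against vector (46.5%), and 4 for the dual knockout against HIF2α-ko (44.4%). Quantile normalization gave 1 for HIF2α-ko (12.7%) and 2 for the dual knockout against vector (48.4%), 1 and 4 for the dual knockout against HIF1α-ko (31.1%) and HIF2α-ko (45.6%), and 4 in the interaction (22.7%). A fit of the groups compared gave 1 in HIF1α/2α-ko against HIF1α-ko (27.2%). The interaction count was 0 with no filter (9.55%) and with no trend in limma (19.9%), with 3 at an unadjusted p under 0.05 in each. Without replicate 1 in any group the counts were 5, 5 and 6 against vector, 3 against HIF1α-ko and 5 in the interaction, beside 55.4%, 37.0%, 64.9%, 45.1% and 43.0% of all genes. The cause was not tested.

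With the replicate block over all 4 groups, where vector shares only numbers with the knockouts, the count against vector was 1 in HIF1α-ko (ITGB5; 33.8% of all genes), 2 in HIF2α-ko (ITGA3, adjusted p = 0.00617, and ITGA5; 17.6%) and 3 in HIF1α/2α-ko (ITGA3, adjusted p = 0.0011, ITGA5 and ITGB1; 52.6%). It was 1 in HIF1α/2α-ko against HIF1α-ko (ITGA3; 34.8%) and 2 in the interaction (ITGA5 and ITGB3; 27.6%), and with the replicate block over the 3 knockout groups 4 in HIF1α/2α-ko against HIF1α-ko (48.5%). The block changed no call of HIF1α/2α-ko against HIF2α-ko.

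Leaving out 1 library at a time gave 0 to 3 (13.2% to 35.8% of all genes), 0 to 4 (4.02% to 21.3%) and 1 to 4 members (36.7% to 50.6%) against vector, 0 to 1 (19.4% to 34.8%) against HIF1α-ko and 0 to 3 (13.2% to 30.4%) in the interaction, the highest member count of each without vector replicate 1. Fold changes that took both signs in this way ran from -0.15 to 0.14 for ITGA3 in HIF1α/2α-ko against HIF2α-ko, from -0.15 to 0.11 for ITGA5 in HIF1α-ko, from -0.22 to 0.31 for ITGA6 in HIF2α-ko and from -0.26 to 0.27 for its interaction. For ITGA6 in HIF1α/2α-ko against HIF1α-ko the range was -0.0172 to 0.13, for ITGAV in HIF1α/2α-ko -0.0903 to 0.27 against vector and -0.33 to 0.0248 against HIF2α-ko, for the ITGB1 interaction -0.0888 to 0.11 and for ITGB3 in HIF1α-ko -0.0636 to 0.32. Changes in ratio ran from -0.50 to -0.45 for ITGB3 to ITGB5 with HIF1α loss, from -0.0340 to 0.18 for ITGAV to ITGB3 + ITGB5 + ITGB8 with HIF1α loss, from -0.63 to -0.35 and -0.0325 to 0.25 for ITGA5 to ITGAV with HIF1α and HIF2α loss, and from -0.41 to -0.21 and 0.35 to 0.55 for ITGA3 to ITGA6.

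Median ratio scaling and quantile normalization turned the sign of ITGA3 in HIF1α/2α-ko against HIF2α-ko (-0.30 and -0.12), ITGAV in HIF1α/2α-ko against vector (-0.18 and -0.25), the ITGB1 interaction (-0.0880 and -0.0745) and ITGB3 in HIF1α-ko (-0.13 and -0.0298). ITGA6 in HIF2α-ko became 0.0134 with a pseudocount of 0.1 and 0.0143 with median ratio scaling. Without replicate 1 in any group it was 0.31, ITGA3 in HIF1α/2α-ko against HIF2α-ko -0.0122, ITGA5 in HIF1α-ko 0.0324, the ITGA6 interaction -0.25 and the ITGA5 to ITGAV ratio with HIF2α loss -0.0225. Sequencing depth is not known from TPM, which limits ITGA6 and the 3 untested members most.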
